A study of Mus musculus with 32 samples.

Results

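Interferon-stimulated genes were measured in livers of male C57/BL6 mice as a fixed list of 39 genes, matched by gene name to the probes of a whole-genome array. All 39 genes had at least 1 probe (51 probes in all), and 37 of them were bright enough to test among the 21071 genes tested. The probes for Oas1g and Oas3 were well above background on all 4 arrays of no group, and these genes were not tested. The array was a 1-colour Agilent design, read as fluorescence of Cy3-labelled cDNA made from total liver RNA. The 32 arrays formed 8 groups of 4 mice. Group C received a standard diet, and group MCD received a diet deficient in methionine and choline for 3 weeks, which causes fatty, inflamed liver. The C+Fc-GLP-1 group and the M+Fc-GLP-1 group received the same diets and, during the last 2 weeks, a long-acting agonist of the glucagon-like peptide 1 receptor. Each of these 4 groups was sampled before partial hepatectomy (PH) and again 2 weeks after removal of 70% of the liver, with diet and treatment continued. The mice were 8 weeks old at the start of the diets, and the animals sampled after PH were those that survived the operation. The sample descriptions of all 4 agonist groups name a dual agonist, for M+Fc-GLP-1 after PH one of the glucagon-like peptide 1 and glucagon receptors. Their source names give Fc-GLP-1, with a dual agonist added for C+Fc-GLP-1 after PH, and the study's methods give Fc-GLP-1. Which agent each group received was not settled here. The study asked how the agonist acts on a fatty liver and on its recovery after PH, and the comparisons below set the diets against each other with and without the agonist, and each agonist group against its untreated group, at both times.

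Type I interferons act through the receptor IFNAR and the kinases JAK1 and TYK2 to form a complex that contains STAT2 and IRF9 and binds a promoter element called the ISRE. Interferon gamma acts through its own receptor and a different element called GAS. Viral RNA sensed inside the cell by RIG-I-like receptors induces the same genes, and in the liver Kupffer cells, other immune cells and hepatocytes can all respond. The genes encode sensors of viral nucleic acid, transcription factors that maintain the response, effectors that block viral RNA or protein, the ubiquitin-like modifier ISG15 and its protease USP18, GTPases that attack membrane-bound pathogens, and components of antigen processing.

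Promoter sequence was examined because both elements are short and the list was not chosen by them. RefSeq promoter windows of assembly GRCm38.p6, each 300 bases long with 250 bases before the annotated start, were held for 31 of the 39 genes. No window was held for Mx1, Mx2, Oas2, Usp18, Dhx58, Zbp1, Iigp1 and Ifi27l2a. The ISRE core was searched as GAAANNGAAA on both strands, and 17 of the 31 genes held it in at least 1 window. Over windows, 46.2% of the 39 member windows held the core, beside 3.44% of all 32851 windows. The GAS letters TTCNNNGAA, which read the same on both strands, were in windows of 10 of the 31 genes and in 25.6% of the member windows, beside 8.3% of all windows. The last 150 bases before the start follow for 8 genes whose windows hold the core there and that the results name. They show how close to the start the core lies and how it is repeated. Capitals mark matches to either motif, and overlapping matches run together.
Bst2: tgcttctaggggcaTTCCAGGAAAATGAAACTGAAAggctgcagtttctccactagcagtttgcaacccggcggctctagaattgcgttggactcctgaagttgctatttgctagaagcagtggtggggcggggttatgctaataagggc
Isg15: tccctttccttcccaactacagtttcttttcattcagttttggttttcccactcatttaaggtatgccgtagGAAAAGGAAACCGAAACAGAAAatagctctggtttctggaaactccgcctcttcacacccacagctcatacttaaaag
Ifit1: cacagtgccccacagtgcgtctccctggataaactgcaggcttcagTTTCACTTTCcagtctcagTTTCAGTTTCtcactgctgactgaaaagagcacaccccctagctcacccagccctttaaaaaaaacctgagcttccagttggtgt
Ifit3: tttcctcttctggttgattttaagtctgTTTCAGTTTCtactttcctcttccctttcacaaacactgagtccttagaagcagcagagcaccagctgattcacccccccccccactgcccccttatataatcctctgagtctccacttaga
Oas1a: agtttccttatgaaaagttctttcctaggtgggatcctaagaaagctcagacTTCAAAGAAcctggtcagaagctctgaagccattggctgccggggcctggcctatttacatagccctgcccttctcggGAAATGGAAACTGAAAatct
Irgm1: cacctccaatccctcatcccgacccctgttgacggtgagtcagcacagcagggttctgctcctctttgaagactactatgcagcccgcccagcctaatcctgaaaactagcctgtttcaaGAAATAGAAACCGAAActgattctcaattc
Gbp2: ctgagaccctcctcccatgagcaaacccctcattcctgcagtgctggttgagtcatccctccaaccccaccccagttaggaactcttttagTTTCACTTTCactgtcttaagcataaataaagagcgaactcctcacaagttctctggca
Igtp: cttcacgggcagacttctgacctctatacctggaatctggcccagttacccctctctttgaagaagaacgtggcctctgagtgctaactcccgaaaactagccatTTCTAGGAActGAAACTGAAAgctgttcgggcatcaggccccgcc
These stretches lie, in GRCm38.p6, Bst2 at chr8:71537473-71537622 (minus strand), Isg15 at chr4:156200819-156200968 (minus strand), Ifit1 at chr19:34640739-34640888 (plus strand), Ifit3 at chr19:34583379-34583528 (plus strand), Oas1a at chr5:120907526-120907675 (minus strand), Irgm1 at chr11:48871421-48871570 (minus strand), Gbp2 at chr3:142620513-142620662 (plus strand) and Igtp at chr11:58199406-58199555 (plus strand). The sequences are given 5′ to 3′ on the gene's strand. In Isg15 there were 3 overlapping copies of the core, the most distal starting 78 bases before the start. In Bst2 a GAS match overlapped the first of 2 cores. Oas1a, Irgm1 and Igtp held the core within 34 bases of the start, and in Ifit1, Ifit3 and Gbp2 it lay on the opposite strand. A match describes the letters only and does not show that a factor bound there.

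Values are given as log2 of the processed signal minus the array's 75th percentile, so that 0 is the signal exceeded by 25% of the spots, and they compare arrays for a given gene but not genes with each other. The share of probes well above background ranged from 36.3% (M+Fc-GLP-1 before PH replicate 2) to 69.2% (C before PH replicate 2), with a median of 51.9%. The hepatocyte markers Alb, Ttr, Apoa1, Apob and Cps1 were well above background on all 4 arrays of every group. The arrays lay on 5 slides. MCD and C before PH shared slide 1, both Fc-GLP-1 groups shared slide 2 before PH and slide 4 after PH, and the untreated groups after PH each had a slide of their own (slide 3 for C, slide 5 for MCD), read on another scanner. Additive slide differences cancel in the interaction of diet and agonist before PH and in that of diet and time under Fc-GLP-1. The diet comparisons before PH, with and without Fc-GLP-1, and the diet comparison under Fc-GLP-1 after PH were each made within a single slide. In the remaining comparisons, slide and group cannot be told apart. In whole liver, fewer cells of a type and less RNA per cell cannot be told apart either.

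**Figure D1:**
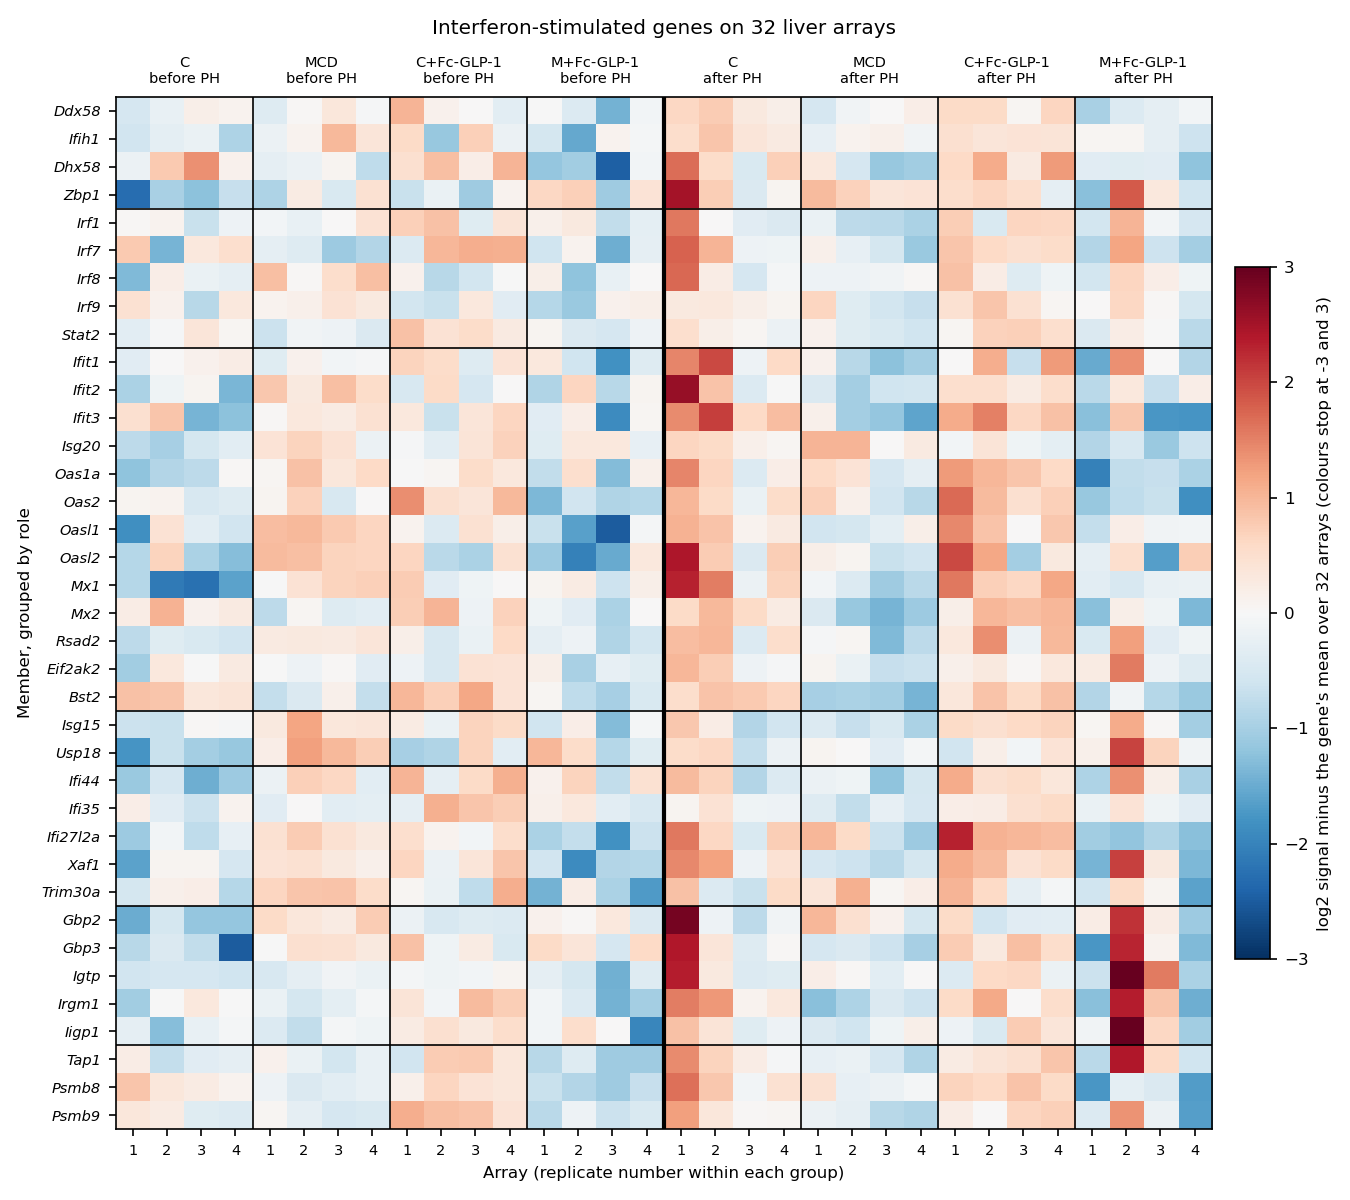
Heat map of the 37 tested genes (rows, grouped by role) on 32 arrays (columns, 4 per group), coloured by log2 signal minus the gene's own mean over all arrays. Arrays C after PH replicate 1 and M+Fc-GLP-1 after PH replicate 2 stood out as red columns, with means over the 37 genes of 1.33 and 0.87, while M+Fc-GLP-1 before PH replicate 3 had the lowest mean of all arrays, -0.93.

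Before PH, the MCD diet was accompanied by higher levels of a subset of antiviral genes and by a lower level of Bst2. Of the 37 genes, 8 were higher and 1 was lower in MCD than in C (limma, adjusted p under 0.05), which is 24.3% of the members beside 26.5% of all genes tested, so that the count itself does not set the list apart. The direction differed, since 8 of the 9 members that passed were higher while 2306 of the 5574 genes that passed were higher. With median centring of each array the split was 16 higher and 0 lower, and it was 9 and 3 after quantile normalization and 10 and 3 in the authors' values. The shares of all genes that passed were 26%, 23.8% and 22.2% in these runs. The median log2 difference was 0.59 over members and -0.13 over all genes, and 26 of 37 members were above 0. The median over members was 0.29 without C before PH replicate 3 and 0.33 without C before PH replicate 4.

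Mx1, listed here among the antiviral effectors, was -2.67, -3.93, -4.06 and -3.43 on the C arrays and -1.83, -1.39, -1.16 and -1.10 on the MCD arrays. Every MCD array was above every C array. The log2 fold change was 2.16 (SE 0.38, adjusted p = 0.000139), and because the probe was well above background on only 1 of the 4 C arrays, the C level is partly background. Usp18, which removes ISG15 from proteins and restrains interferon receptor signalling, read 0.80, 1.91, 1.55 and 1.44 in C and 2.76, 3.80, 3.53 and 3.31 in MCD. Again the groups did not overlap, with a difference of 1.93 (SE 0.43, adjusted p = 0.00155), although this call was lost after quantile normalization (adjusted p = 0.0546) and in the authors' values. Isg20, an exonuclease that degrades viral RNA, rose from 1.90 ± 0.30 in C to 2.88 ± 0.36 in MCD (SD, n = 4 each), with the lowest MCD array at 2.37 and the highest C array at 2.24. Its difference was 0.99 (SE 0.27, adjusted p = 0.00727).

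Bst2, or tetherin, which holds budding virus particles on the cell surface, went the other way. Its level was 7.24, 7.18, 6.70 and 6.75 on the C arrays and 5.64, 5.92, 6.51 and 5.63 on the MCD arrays, with no overlap. The fold change was -1.04 (SE 0.25, adjusted p = 0.00284), and the call was lost with median centring (adjusted p = 0.0645). The other members that rose were Oasl1, Oas1a and Ifit2 among the antiviral effectors, Ifi44 and Gbp2, by 1.18 to 1.57 on the log2 scale. Oasl1 was lost under 1 of 15 alternative runs, Oas1a under 5, Ifit2 and Ifi44 each under 6 and Gbp2 under 7. Without C before PH replicate 1 the number that passed fell from 9 to 4. By role, 5 of 13 effectors, 1 of 2 genes of the ISG15 system, 1 of 5 GTPases and 1 of 5 other induced genes rose, and no sensor (0 of 4), transcription factor (0 of 5) or antigen processing gene (0 of 3) passed in either direction.

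Macrophage and neutrophil markers were also higher in MCD before PH. The summed linear level of 8 macrophage markers, each relative to the array's 75th percentile, ranged from 57.5 to 103.9 in C and from 117.4 to 325.6 in MCD, and 5 of the 8 rose (Adgre1, Cd5l, Cd68, Clec4f and Csf1r). For the 5 neutrophil markers the ranges were 2.44 to 2.92 in C and 4.30 to 21.95 in MCD, with S100a8, S100a9 and Mpo higher. The 4 plasmacytoid dendritic cell markers, from a cell type that makes much interferon, ranged from 34.46 to 120.0 in C and from 79.74 to 102.9 in MCD, and none of the 4 passed. Of the 5 hepatocyte markers, Apoa1 was lower, and the list's mean log2 level did not overlap between C (8.14 to 8.61) and MCD (7.65 to 7.85). Among lymphoid markers, Cd3e and Cd79a were lower and Klrb1c was higher. The part of these cells in the result was not tested.

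**Figure D2:**
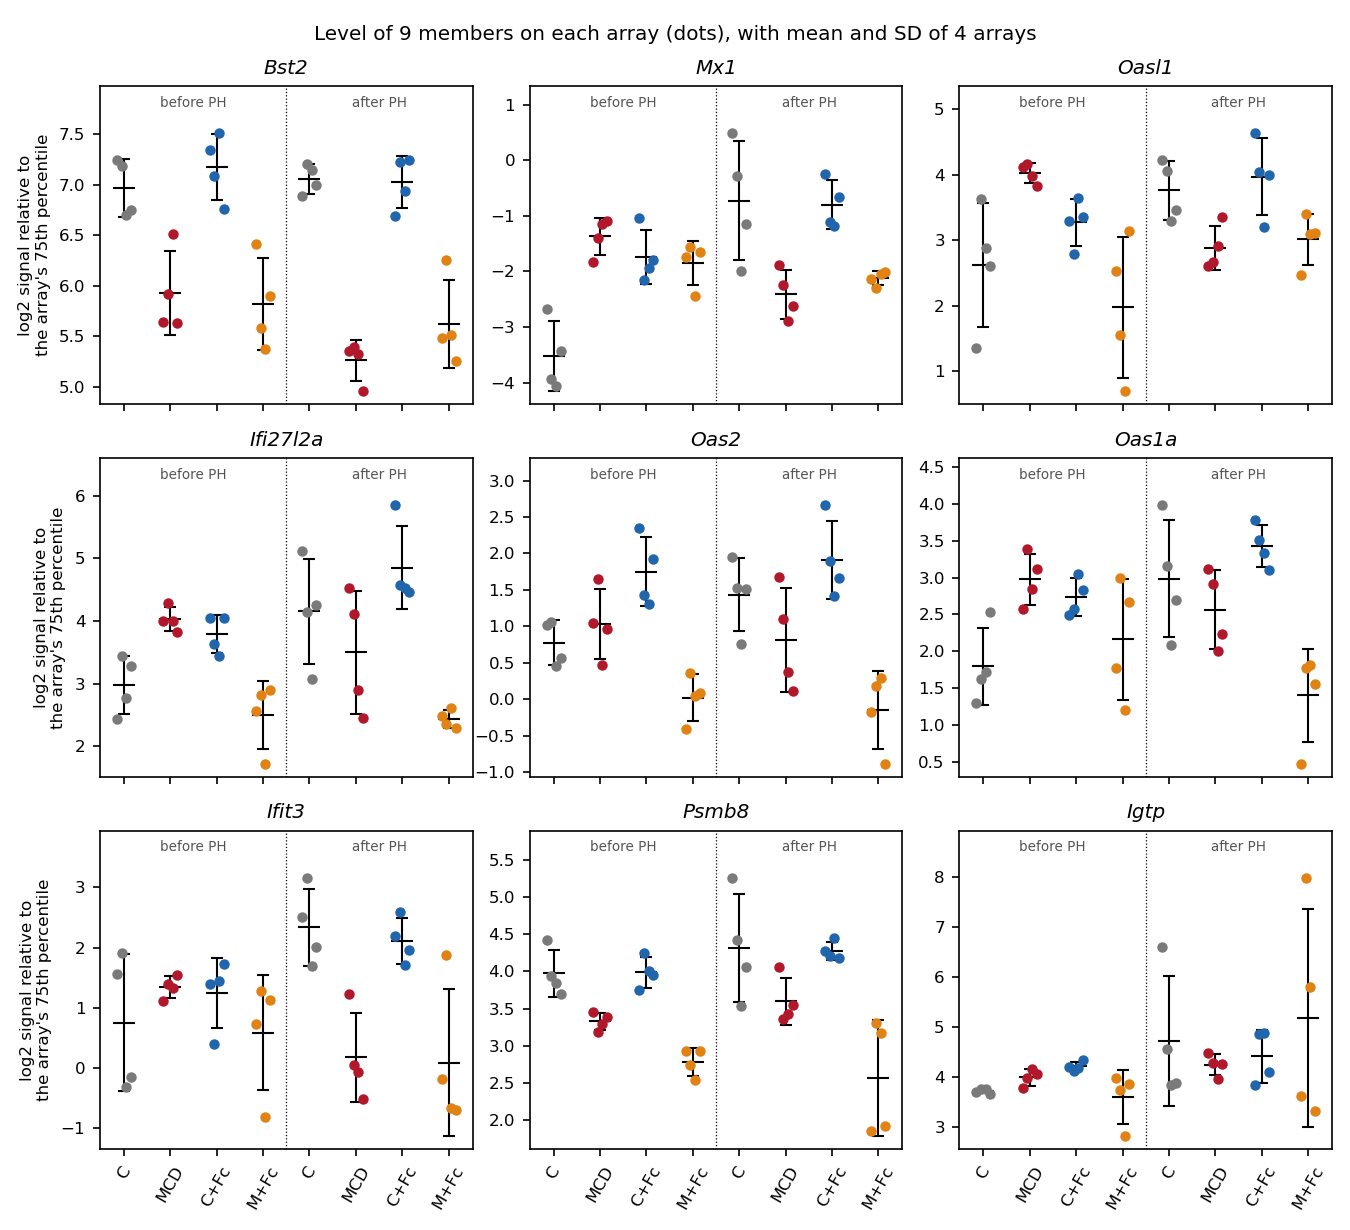
Level of 9 genes on every array (dots) with the mean and SD of 4 arrays, on the log2 scale relative to the array's 75th percentile, with groups before PH left of the dotted line and groups after PH right of it. Bst2 was lower on the MCD diet in all 4 diet pairs, Mx1 was lowest in C before PH, and Igtp after PH spread from 3.31 to 7.99 in M+Fc-GLP-1.

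Under Fc-GLP-1 before PH, the diet difference ran downwards across the list. Between M+Fc-GLP-1 and C+Fc-GLP-1, which shared a slide, 8 of 37 members were lower and 0 higher, 21.6% beside 10.4% of all genes tested (1127 genes higher, 1056 lower). The median difference was -0.69 over members and 0.04 over all genes, and 32 of 37 members were below 0. Bst2 was 7.34, 7.08, 7.51 and 6.76 in C+Fc-GLP-1 and 6.41, 5.58, 5.37 and 5.90 in M+Fc-GLP-1. Each M+Fc-GLP-1 array was below each C+Fc-GLP-1 array, and Bst2 fell by 1.36 (SE 0.25, adjusted p = 0.000486). Oas2, an oligoadenylate synthase whose product activates RNase L, was at 2.34, 1.43, 1.31 and 1.92 against -0.40, 0.36, 0.05 and 0.08 in the MCD-fed mice. The gap between the groups exceeded the spread within either, and the difference was -1.73 (SE 0.34, adjusted p = 0.00119). Dhx58, the RIG-I-like protein LGP2, gave 0.53, 0.95, 0.25 and 1.08 in C+Fc-GLP-1 and -1.11, -1.0, -2.39 and -0.03 in M+Fc-GLP-1, again without overlap, a difference of -1.83 (SE 0.43, adjusted p = 0.00581). The immunoproteasome subunits Psmb8 and Psmb9, the transcription factor Stat2, Ifi27l2a and Oasl1 were also lower, with log2 fold changes of -0.79 to -1.32. Psmb8 held under all 15 alternative runs, while Stat2 and Oasl1 were each lost under 9 and Psmb9 and Ifi27l2a each under 6. Without M+Fc-GLP-1 before PH replicate 3, which had the lowest member levels, the number that passed was 4. Clec4f, 1 of the 8 macrophage markers, was lower in this comparison, no neutrophil, T and NK, hepatocyte or plasmacytoid dendritic cell marker passed, and the summed macrophage levels ranged from 72.9 to 127.2 in C+Fc-GLP-1 and from 48.13 to 110.9 in M+Fc-GLP-1.

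The agonist comparisons before PH, which share the C and MCD arrays with the comparison of diets, lay on opposite sides of 0 on the 2 diets. On the standard diet, 36 of 37 members were above 0 in C+Fc-GLP-1 relative to C, with a median of 0.60 beside -0.04 over all genes, but only 2 passed, Mx1 and Ifi44 (5.41% of members, beside 2.11% of all genes). In the authors' values 8 members were higher and 1 was lower, beside 10.5% of all genes that passed there. Mx1 was -1.05, -2.16, -1.94 and -1.80 in C+Fc-GLP-1, all above the C arrays given above. Its difference was 1.79 (SE 0.38, adjusted p = 0.0133), and it did not pass when only these 8 arrays were fitted (adjusted p = 0.0748). Ifi44, an interferon-induced protein with antiviral activity, was -1.71, -1.09, -2.06 and -1.68 in C and 0.41, -0.87, -0.03 and 0.47 in C+Fc-GLP-1. The groups did not overlap, and the difference of 1.63 (SE 0.45, adjusted p = 0.0492) lay at the threshold. It was lost without any one of the 4 C arrays or without C+Fc-GLP-1 replicate 1, 3 or 4, and 1 member passed without any one C array or without C+Fc-GLP-1 replicate 3 or 4. None of the 8 macrophage markers passed in this comparison, and their median was 0.53. Their mean log2 level was 1.27 to 2.10 on the C arrays and 2.03 to 2.63 on the C+Fc-GLP-1 arrays. The part of these cells in the result was not tested.

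On the MCD diet, 32 of 37 members were below 0 in M+Fc-GLP-1 relative to MCD, with a median of -0.53 beside 0.10 over all genes. Lower levels passed for 3 members (8.11%, beside 7.22% of all genes), Oasl1, Ifi27l2a and Trim30a. Oasl1, an OAS-like protein without synthase activity that regulates Irf7 translation, was tight in MCD at 4.12, 4.16, 3.98 and 3.83 and wide in M+Fc-GLP-1 at 2.52, 1.55, 0.69 and 3.13. No array overlapped, and Oasl1 fell by 2.05 (SE 0.42, adjusted p = 0.0044). Ifi27l2a, a small interferon-induced membrane protein of the ISG12 family, was 4.00, 4.29, 4.00 and 3.83 in MCD and 2.57, 2.83, 1.73 and 2.90 in M+Fc-GLP-1, a difference of -1.52 (SE 0.40, adjusted p = 0.0204). Trim30a, a ubiquitin ligase that dampens Toll-like receptor signalling, was -0.48, -0.30, -0.28 and -0.59 in MCD. In M+Fc-GLP-1 it read -2.56, -0.91, -2.08 and -2.84, below every MCD array, and the difference was -1.68 (SE 0.45, adjusted p = 0.0233). Without MCD replicate 1 or 2, or without M+Fc-GLP-1 replicate 3, 1 member passed. The macrophage markers Cd5l, Clec4f and Csf1r and the neutrophil markers S100a8 and S100a9 were lower in the same comparison, with log2 fold changes of -1.65 to -3.01, while Ly6g was higher (0.95), and their part in the result was not tested. The agonist and control groups lay on different slides.

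The interaction of diet and agonist before PH, the diet difference with Fc-GLP-1 minus that without it, was below 0 for all 37 members, with a median of -1.16 beside 0.15 over all genes. It passed for 6 members, all negative (16.2%, beside 6.15% of all genes). The diet difference of Oasl1 was 1.41 without and -1.29 with Fc-GLP-1, an interaction of -2.70 (SE 0.59, adjusted p = 0.01). For Mx1 the difference went from 2.16 to -0.11, an interaction of -2.27 (SE 0.53, adjusted p = 0.0154), and for Ifi27l2a from 1.04 to -1.29, an interaction of -2.33 (SE 0.56, adjusted p = 0.017). Oas2, Oas1a and Xaf1 also passed, but Oas1a and Xaf1 were each lost when most single arrays were left out. With median centring, 17 members passed, all negative, beside 12.2% of all genes, and the median over all genes was then -0.47. Clec4f, Cd5l and Csf1r of the 8 macrophage markers and S100a8 and S100a9 of the 5 neutrophil markers had negative interactions too, from -2.01 to -4.43. Bst2 did not pass here: its diet difference was -1.04 without and -1.36 with the agonist.

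**Figure D3:**
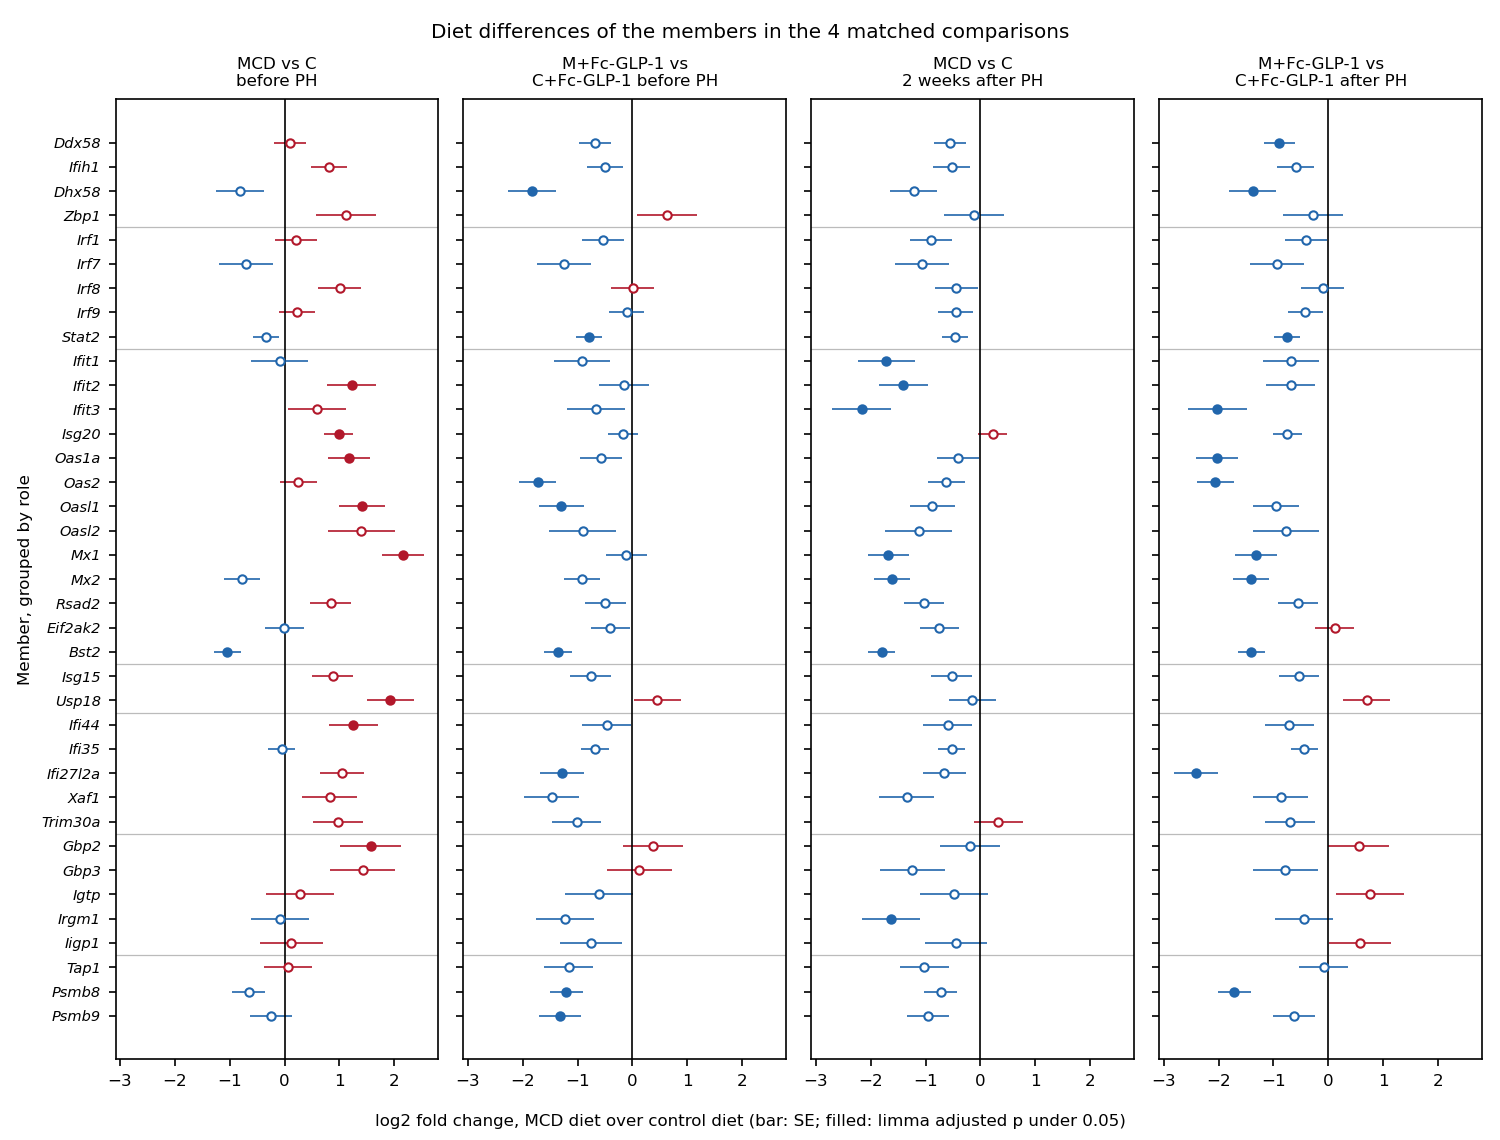
Log2 fold change of each of the 37 genes, MCD diet over control diet, in the 4 matched pairs of groups, with bars of 1 SE; filled symbols passed at an adjusted p under 0.05. Points lay mostly right of 0 for MCD against C before PH (26 of 37) and left of 0 in the other 3 panels (32, 35 and 32 of 37).

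After PH, Bst2, Mx1, Mx2, Ifit1, Ifit2, Ifit3 and Irgm1 were lower in MCD than in C livers. Lower levels passed for these 7 members and higher levels for 0 (18.9%, beside 12.1% of all genes, of which 1275 were higher and 1283 lower). The median was -0.72 over members and -0.03 over all genes, and 35 of 37 members were below 0. Bst2 was 6.88, 7.20, 7.15 and 6.99 in C and 5.36, 5.40, 5.33 and 4.96 in MCD. All MCD arrays lay more than 1 log2 unit below all C arrays, and Bst2 fell by 1.80 (SE 0.25, adjusted p = 1.21e-05). Mx2, the cytoplasmic relative of Mx1, was 1.57, 1.98, 1.58 and 1.24 in C and 0.56, -0.13, -0.39 and -0.09 in MCD, without overlap, a difference of -1.61 (SE 0.33, adjusted p = 0.00145). Mx1 was 0.49, -0.28, -1.98 and -1.14 in C and -1.89, -2.24, -2.89 and -2.63 in MCD. C replicate 3 fell among the MCD arrays, and Mx1 fell by 1.68 (SE 0.38, adjusted p = 0.00359). The remaining 4 were Ifit1, Ifit2 and Ifit3, which bind viral RNA or the factors that translate it, and the GTPase Irgm1, with log2 fold changes of -1.40 to -2.16. Ifit1, Ifit2 and Irgm1 were lost after quantile normalization and in the authors' values. They were also lost without C replicate 1 or 2, which had high member levels, or without MCD replicate 2, 3 or 4, and the number that passed was then 4. These groups had a slide each, so slide and diet cannot be told apart in them. Neutrophil markers ranged from 7.61 to 29.99 in C and from 49.99 to 147.5 in MCD in summed level, and S100a8, S100a9 and Retnlg were higher (3 of 5), whereas the members that passed were lower. Klrb1c of the 6 T and NK genes was also higher, and no macrophage or plasmacytoid dendritic cell marker passed. The part of these cells was not tested.

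Without the agonist, the diet difference after PH was set against that before PH as an interaction of diet and time, a comparison chosen after the data were seen. It was below 0 for all 37 members (median -1.24, beside 0.07 over all genes). It passed for 5 members, all negative (13.5%, beside 2.85% of all genes): Mx1, Ifit2, Oasl1, Ifit3 and Rsad2. For Mx1 the diet difference was 2.16 before and -1.68 after PH, an interaction of -3.83 (SE 0.53, adjusted p = 0.00068). For Ifit2 it was 1.22 before and -1.40 after PH, an interaction of -2.63 (SE 0.64, adjusted p = 0.0243). Oasl1 had differences of 1.41 and -0.88, an interaction of -2.28 (SE 0.59, adjusted p = 0.0338). Mx1 alone passed when MCD before PH replicate 3 was left out, and 11 members passed without C after PH replicate 3. Without any other single array 2 or 3 passed, apart from C before PH replicate 2 (6) and MCD after PH replicate 1 (4). The macrophage marker Clec4f also had a negative interaction (1 of 8, -1.88), the median of the 8 macrophage markers was -1.34, and their part in the result was not tested. The slides after PH cannot be told apart from diet.

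Between M+Fc-GLP-1 and C+Fc-GLP-1 after PH, a comparison within slide 4, lower levels passed for 11 members and higher levels for 0 (29.7%, beside 12.8% of all genes, 1307 higher and 1395 lower), and the median was -0.70, beside -0.01 over all genes. Without M+Fc-GLP-1 replicate 4 the median was -0.46. Ifi27l2a was 5.84, 4.57, 4.53 and 4.46 in C+Fc-GLP-1 and 2.48, 2.36, 2.62 and 2.29 in M+Fc-GLP-1. The groups were far apart, and Ifi27l2a fell by 2.41 (SE 0.40, adjusted p = 0.00011). Oas2 was 2.66, 1.90, 1.42 and 1.66 in C+Fc-GLP-1 and -0.18, 0.18, 0.29 and -0.88 in M+Fc-GLP-1, a difference of -2.06 (SE 0.34, adjusted p = 0.000126). Psmb8, an interferon-induced catalytic subunit of the immunoproteasome, was 4.27, 4.20, 4.45 and 4.18 in C+Fc-GLP-1. In M+Fc-GLP-1 its arrays were lower and more spread, at 1.86, 3.30, 3.17 and 1.92, a difference of -1.72 (SE 0.30, adjusted p = 0.000218). Bst2 was again lower in the MCD-fed mice, at 5.48, 6.25, 5.51 and 5.25 against 6.69, 7.22, 6.94 and 7.24, a log2 fold change of -1.40. Oas1a, Ifit3, Mx1, Mx2, Dhx58, Ddx58 and Stat2 were lower too, with log2 fold changes of -0.75 to -2.02. Of these, Oas1a and Ifit3 held under all 15 alternative runs. Ddx58 was lost under 11 of them, Stat2 under 10, Dhx58 under 5, Mx1 under 4 and Mx2 under 1. By role, 6 of 13 effectors, 2 of 4 sensors, 1 of 5 transcription factors, 1 of 5 other induced genes, 1 of 3 antigen processing genes, 0 of 5 GTPases and 0 of 2 genes of the ISG15 system passed. With 1 array left out at a time, 8 to 11 members passed.

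Markers of several immune cell types were lower in the same comparison. The B cell genes Cd79b and Ms4a1, the T cell gene Cd3g (1 of 6 tested T and NK genes), the plasmacytoid dendritic cell gene Spib (1 of 4) and the macrophage genes Clec4f and Timd4 (2 of 8) had log2 fold changes of -1.08 to -2.24. The summed level of the 6 T and NK genes ranged from 5.68 to 8.57 in C+Fc-GLP-1 and from 4.18 to 5.82 in M+Fc-GLP-1. Cd8a and Ncr1 were too dim to test. Whether fewer lymphoid cells took part in the lower member levels was not tested.

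After PH, few members passed in the comparisons of agonist with no agonist. On the standard diet no member passed between C+Fc-GLP-1 and C (0 of 37, beside 2.06% of all genes), no member had an unadjusted p under 0.05 either, and 16 of 37 members were above 0 (median -0.02). Without C replicate 1, 31 members were above 0 and the median was 0.27, and the medians without any other single array lay between -0.20 and 0.05. On the MCD diet 2 members passed between M+Fc-GLP-1 and MCD, both lower (5.41%, beside 6.5% of all genes), while 27 of 37 members were above 0, with a median of 0.29. This direction rested on M+Fc-GLP-1 replicate 2, without which 15 members were above 0 and the median was -0.06. Isg20 was 3.58, 3.57, 2.56 and 2.83 in MCD and 1.67, 2.06, 1.44 and 1.93 in M+Fc-GLP-1. There was no overlap, and Isg20 fell by 1.36 (SE 0.27, adjusted p = 0.00274). Psmb8 was 4.05, 3.36, 3.42 and 3.55 in MCD, all above the M+Fc-GLP-1 arrays given above, a difference of -1.04 (SE 0.30, adjusted p = 0.0361). It was lost without any one MCD array or without M+Fc-GLP-1 replicate 1 or 4, and without MCD replicate 1, 2 or 3 or M+Fc-GLP-1 replicate 1 or 4 only 1 member passed. Adgre1 and Timd4 of the 8 macrophage markers, Mpo, Retnlg, S100a8 and S100a9 of the 5 neutrophil markers and Ccr9 of the 4 plasmacytoid dendritic cell markers were lower in the same comparison, with log2 fold changes of -1.14 to -4.35, and their part in the result was not tested. Within the agonist groups, with arrays fitted as separate mice, no member passed between the times by limma. In C+Fc-GLP-1 it was 0 of 37 (beside 0.835% of all genes), where 3 had an unadjusted p under 0.05. In M+Fc-GLP-1 it was 0 of 37 (beside 1.71%), where 4 had an unadjusted p under 0.05. The interaction of diet and time under Fc-GLP-1 also passed for 0 of 37 (beside 0.0949% of all genes, with 2 members at an unadjusted p under 0.05), and its median was 0.04, or -0.22 to 0.14 with 1 array left out. The median diet difference under the agonist was -0.69 before and -0.70 after PH.

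**Figure D4:**
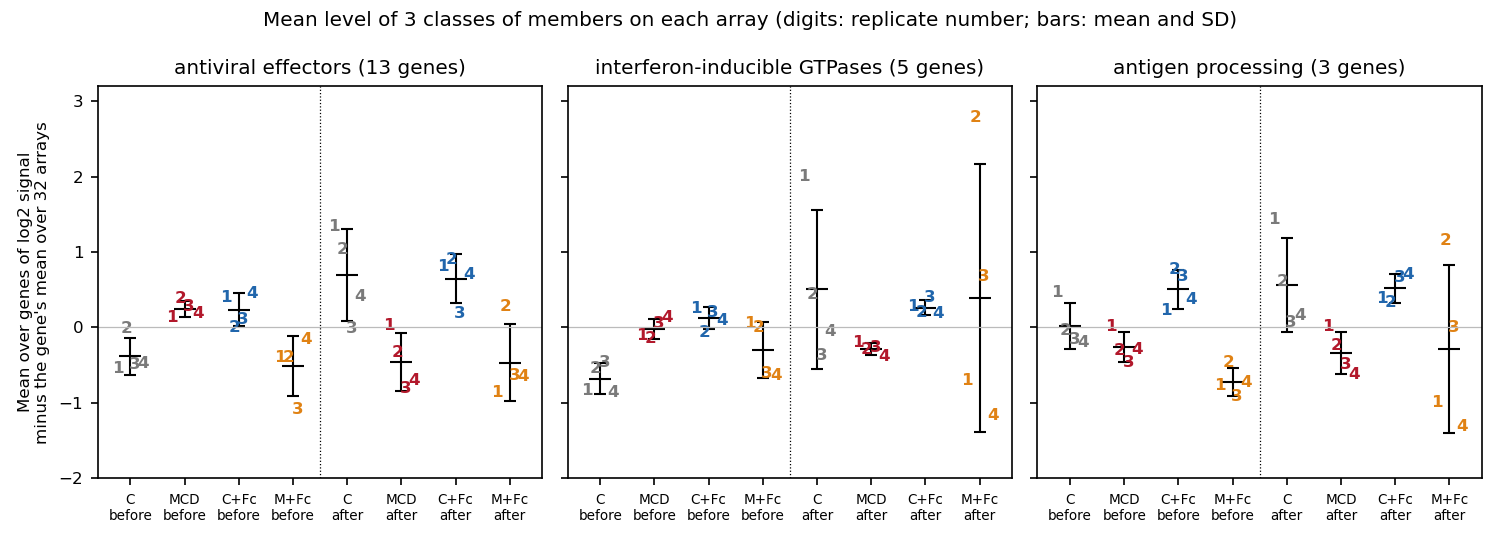
Mean over genes of log2 signal minus each gene's mean over 32 arrays, for the antiviral effectors (13 genes), the interferon-inducible GTPases (5 genes) and the antigen processing genes (3 genes); digits are replicate numbers and bars the mean and SD of 4 arrays. In M+Fc-GLP-1 after PH the GTPases ranged from -1.17 to 2.78, a wider spread than the effectors in that group (-0.87 to 0.28).

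In C and in M+Fc-GLP-1 after PH, the class mean with the widest spread between animals was that of the GTPases Gbp2, Gbp3, Igtp, Irgm1 and Iigp1, a class known for strong induction by interferon gamma. Its SD was 1.05 in C and 1.77 in M+Fc-GLP-1, whereas in MCD (0.08) and C+Fc-GLP-1 (0.10) after PH it was the smallest of the 7 roles. Igtp, or Irgm3, was 3.61, 7.99, 5.81 and 3.31 in M+Fc-GLP-1 after PH and 6.61, 4.56, 3.84 and 3.89 in C after PH. It stayed between 3.66 and 3.76 on the C arrays before PH. Replicate 2 of M+Fc-GLP-1 and replicate 1 of C therefore stood out, and the SD of Igtp was 2.18 in the former group, beside 0.05 in C before PH. Its probe had 10 spots per array, with a median SD between spots of 0.20, smaller than these differences. The class mean was -0.71, 2.78, 0.67 and -1.17 on the M+Fc-GLP-1 arrays after PH, beside 0.19 to 0.39 on all 4 C+Fc-GLP-1 arrays. The effectors on the same M+Fc-GLP-1 arrays were at -0.87, 0.28, -0.64 and -0.64, so replicate 2 was highest in both classes but the gap was wider for the GTPases. Antigen processing genes followed, at -0.99, 1.15, 0.00 and -1.31.

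Cell markers on these arrays were compared with the other 3 arrays of the group. On M+Fc-GLP-1 after PH replicate 2 the mean of the 6 T and NK markers was -1.51, beside -2.01 to -1.44 on the other 3 arrays, and that of the 8 macrophage markers was 2.93, beside 2.61 to 3.30, both within the range of the others. On C after PH replicate 1, the macrophage mean was 5.19, beside 2.67 to 3.69 on the other 3, and the hepatocyte mean was 7.38, beside 7.99 to 8.36, both outside that range. Without M+Fc-GLP-1 after PH replicate 2, 11 members passed between M+Fc-GLP-1 and C+Fc-GLP-1 after PH.

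Across single arrays the members varied together within groups. As a description over 32 arrays, after removal of group means, the median Pearson correlation over the 666 pairs of members was 0.39, beside -0.01 between members and all other tested genes. The arrays share depth, slide and tissue composition, which were not removed. The mean over members varied most in C (SD 0.66) and M+Fc-GLP-1 (SD 0.77) after PH, beside 0.08 to 0.31 in the other groups. Arrays of these groups therefore weigh heavily in the correlations, which were not computed without them. Igtp had the highest median correlation with the other members (0.57), its closest being Gbp3 (0.85). Oas2 and Ifi27l2a were each other's closest (0.73), as were Ifit1 and Rsad2 (0.79), the latter encoding viperin, and Irgm1 and Xaf1 (0.84). At the low end were Ifih1 (0.08), which encodes the RNA sensor MDA5, Ifi35 (0.14) and Irf9 (0.17).

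Among the transcription factors, Irf1, Irf7, Irf8 and Irf9 passed in none of the 13 comparisons. Stat2 passed in the 2 diet comparisons under Fc-GLP-1, with log2 fold changes of -0.79 before and -0.75 after PH, and both calls were lost after quantile normalization and in the authors' values. Irf7, which amplifies type I interferon production, had differences of -0.71, -1.24, -1.06 and -0.94 in the 4 diet pairs, none of which passed. Isg15 itself, the modifier for which Usp18 is the protease, was 3.08 to 3.78 in C and 4.04 to 4.94 in MCD before PH. The ranges did not overlap, but the difference of 0.88 did not pass (adjusted p = 0.0772). Another Isg15 probe, dimmer but also bright enough to test, gave a larger difference of 1.34 in the same comparison.

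Genes upstream of the list that passed did so in both directions. Of 30 ligands, receptors, kinases, STATs, inhibitors, adaptors and sensors listed, 23 were tested. The probes for Ifnb1, Ifng, Ifna2, Ifna4 and Tlr3 were too dim, and Ifnl2 and Mavs were not found by name. In MCD against C before PH, 4 of the 23 were higher and 2 lower, beside 26.5% of all genes that passed. In M+Fc-GLP-1 against C+Fc-GLP-1 after PH, 2 were higher and 1 lower, beside 12.8% of all genes. These counts do not set the genes apart, and at most 1 of the 23 passed in any other comparison. Ifng was well above background on 3 of 4 arrays in C and in C+Fc-GLP-1 after PH and on 0 of 4 in MCD and in M+Fc-GLP-1 after PH, a difference in detection that was not tested. Between MCD and C before PH, the receptor chains Ifnar1 (1.10), Ifngr1 (0.99) and Il10rb (0.81) and the kinase Jak1 (1.02) rose, while the adaptor Myd88 (-0.57) and the DNA sensor Tlr9 (-1.02) fell. Under Fc-GLP-1, Tyk2 was lower on the MCD diet before PH (-1.72). After PH, Ifnar2 was lower (-1.17) and Ifngr2 (0.97) and Ifnlr1 (1.92) were higher in M+Fc-GLP-1 than in C+Fc-GLP-1. Ifnl3 was lower with the agonist after PH on both diets (-0.89 and -0.71), and the adaptor Ticam1 was higher in MCD than in C after PH (0.80). Socs1 passed in none of the 13 comparisons. For 8 of the 37 members another probe was also bright enough to test. It differed in sign from the brighter one in at least 1 comparison for Ddx58, Zbp1, Iigp1, Irgm1, Ifih1, Oas1a and Isg20, in no comparison where the member passed. Probes of the Oas, Gbp and Ifit families may also bind close relatives, which was not tested.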

How the data were processed

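Total RNA from 32 mouse livers was labelled with Cy3 by the authors and hybridised to Agilent 1-colour arrays, and the deposited scanner files hold processed spot intensity from Agilent Feature Extraction 10.7.3.1. The deposited table of normalized log2 values, which the authors scaled separately before and after PH, was used as an alternative, and each of its 32 columns was best matched by its own array. Here, log2 intensity minus each array's 75th percentile was taken, outlier spots were left out, and probes well above background on each of the 4 arrays in 1 or more groups were kept (28932 of 55681), the brightest kept probe standing for its gene. Probe names came from the files, updated by RefSeq accession. The 8 groups were fitted together with limma 3.58.1 in R 4.3.3, with Benjamini-Hochberg adjustment over 21071 genes and a threshold of 0.05. The model code was tested on simulated data. Arrays of a group correlated between 0.94 and 0.98, so no array was a duplicate. The labels call the arrays of a group biological replicates, and the study gives its unit as mice. The number of arrays limits the precision.

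The members, roles, marker lists and pathway list were chosen with earlier results of these data known. Full statistics are given for at most the 3 members with the smallest adjusted p per direction in each comparison. Other single genes and arrays, such as Isg15, Irf7 and Igtp, were described after their values were seen. Alternatives were normexp background correction (offset 50) with quantile normalization, centring on each array's median, the authors' values, keeping dim probes, averaging the probes of a gene, fitting the compared groups alone, a replicate block, and leaving out each array. Some genes of the marker and pathway lists are not reported here.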

Additional observations from a re-analysis of the deposited data

Results flagged for a closer look

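In 12 of 296 groups of 4 values (37 members in 8 groups), 1 array lay far from the other 3 by Dixon's criterion, while chance gives about 1 in 20 such groups. Of these, 6 were in C+Fc-GLP-1 after PH: Ifi27l2a was highest on replicate 1 (5.84, others 4.46 to 4.57), Mx2 lowest on replicate 1 (1.18, others from 1.90), and Irf1 lowest on replicate 2 (3.57, others from 4.66). In the same group Ddx58 (2.74) and Ifit2 (-1.72) were lowest on replicate 3, and Zbp1 (1.12) on replicate 4. Before PH, Mx2 was highest on C replicate 2 (2.04, others 1.14 to 1.26), Irf7 lowest on C+Fc-GLP-1 replicate 1 (0.57), and Ifi35 (3.04) and Isg15 (4.94) highest on MCD replicate 2. After PH, Bst2 was lowest on MCD replicate 4 (4.96, others 5.33 to 5.40) and Dhx58 lowest on M+Fc-GLP-1 replicate 4 (-1.16, others from -0.32).

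The diet difference differed with and without Fc-GLP-1 before PH, by the interaction term, for Oasl1 (-2.70), Ifi27l2a (-2.33), Xaf1 (-2.29), Mx1 (-2.27), Oas2 (-1.98) and Oas1a (-1.75). Without Fc-GLP-1 it differed before and after PH for Mx1 (-3.83), Ifit3 (-2.76), Ifit2 (-2.63), Oasl1 (-2.28) and Rsad2 (-1.87), a comparison in which the slides after PH cannot be told apart from diet.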

How the results depend on the processing

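Of the 53 member calls, 20 held under every alternative run and 33 were lost under at least 1, and none reversed. Among those that held were Bst2 in the 3 diet comparisons other than MCD against C before PH, Mx1 and Isg20 in MCD against C before PH, and Oas2, Oas1a, Ifi27l2a, Ifit3 and Psmb8 in M+Fc-GLP-1 against C+Fc-GLP-1 after PH. Calls were lost for 15 of 53 by normexp and quantile normalization, 6 of 53 by median centring, 12 of 48 in the authors' values, 18 of 53 without the filter on dim probes, 2 of 53 by the mean over probes, and 11 of 53 when only the groups compared were fitted. Median centring moved the median of all genes from -0.13 to 0.24 in MCD against C before PH and from 0.15 to -0.47 in the diet-by-agonist interaction, and the median of members minus that of all genes was 0.72 and -1.31 under both scalings. The cause of the changed counts below was not tested, except that fewer arrays or more genes tested are part of the construction where arrays are left out or the filter is dropped.

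In MCD against C before PH, 9 members passed, 16 with median centring, 15 with only these groups fitted and 4 to 12 with 1 array left out. The share of all genes was 26.5%, 26% with median centring and 24.2% with only these groups fitted. In M+Fc-GLP-1 against C+Fc-GLP-1 before PH, 8 passed, 12 with median centring, 5 after quantile normalization, 5 without the filter and 4 to 7 with 1 array left out. Of all genes, 10.4% passed, 11.9% with median centring, 6.87% after quantile normalization and 4.57% without the filter. Without the filter 39 members were tested. In C+Fc-GLP-1 against C before PH, 2 passed, 6 after quantile normalization, 5 with median centring, 9 in the authors' values, 1 without the filter, 0 with only these groups fitted and 1 to 2 with 1 array left out. Over all genes, 444 passed in that comparison (2.11%), 2460 after quantile normalization (11.7%) and 48 with only these groups fitted (0.228%). The share was 4.93% with median centring, 10.5% in the authors' values and 1.54% without the filter. In M+Fc-GLP-1 against MCD before PH, 3 passed, 8 after quantile normalization and with median centring, 7 in the authors' values, 6 without the filter, 5 by the mean over probes and with only these groups fitted, and 1 to 3 with 1 array left out. Of all genes, 7.22% passed, 12.5% after quantile normalization, 7.29% with median centring, 11.2% in the authors' values and 19.5% without the filter. The share was 7.25% by the mean over probes and 6.86% with only these groups fitted. In the diet-by-agonist interaction before PH, 6 passed, 17 with median centring and 4 to 8 with 1 array left out. The share of all genes was 6.15%, and 12.2% with median centring. In MCD against C after PH, 7 passed, 4 with median centring or without the filter and 4 to 10 with 1 array left out. Of all genes, 12.1% passed, 11% with median centring and 5.23% without the filter. In M+Fc-GLP-1 against C+Fc-GLP-1 after PH, 11 passed, and 8 to 11 with 1 array left out. In M+Fc-GLP-1 against MCD after PH, 2 passed, 1 without the filter or with only these groups fitted, and 1 to 3 with 1 array left out. The share of all genes was 6.5%, 2.21% without the filter and 3.94% with only these groups fitted. In the interaction of diet and time without Fc-GLP-1, 5 passed, 8 after quantile normalization, 2 without the filter and 1 to 11 with 1 array left out. Of all genes, 2.85% passed, 3.35% after quantile normalization and 0.947% without the filter. The 4 comparisons in which 0 members passed stayed at 0 under every alternative run.

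Whether replicate numbers pair samples of the same mouse was not settled. The study took its samples before PH from liver removed in the operation, and the arrays were fitted here as separate mice. Residuals of arrays with the same diet, treatment and number before and after PH correlated between -0.05 and 0.09 (16 pairs). Such values cannot show that the mice differed, since slide and time also differed within each pair. With replicate number as a block, 5 members passed in M+Fc-GLP-1 against MCD before PH, where 3 passed without the block, and 2 of the 53 calls were lost, Xaf1 in the interaction before PH and Ddx58 in M+Fc-GLP-1 against C+Fc-GLP-1 after PH. Weak signal limits the list too: Oas1g and Oas3 could not be tested, and Mx1 in C before PH was well above background on 1 of 4 arrays.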
